A study of Homo sapiens with 6 samples.

Results

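The genes described here are 43 genes of the unfolded protein response and of the ATF4 stress response. They were taken by symbol from a table of 58174 genes, and each symbol was found once. KNS42, an established line that comes from a glioblastoma of a child and is grown in serum-containing medium, was transfected with a pool of siRNAs against the RNA-binding protein MSI1 (siMSI1) or with a control siRNA (siC), and polyA RNA was sequenced 72 h later in 3 libraries per group. The labels name no inducer of endoplasmic reticulum (ER) stress for either group, and only 1 siRNA pool against MSI1, so effects of the pool other than through MSI1 cannot be told apart. Whether the 3 libraries of a group came from separate cultures is not given in the sources used here, so the p-values measure the spread between these libraries.

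Levels are in FPKM, a read number scaled by gene length and library depth that can therefore be compared between genes. The libraries held 13087025 to 18024080 reads on genes. MSI1 was at 63.7, 61.9 and 66.9 FPKM in siC replicates 1 to 3 and at 12.1, 12.3 and 11.2 FPKM in siMSI1 replicates 1 to 3. The neural and glioma markers NES, VIM, SOX2, FABP7 and GFAP were detected in every library while S100B was at 0. All 7 markers of blood, endothelial and epithelial cells were at or below 0.509 FPKM and were not tested. At these low levels, the endothelial markers CDH5 and PECAM1 had 0 to 3 and 0 to 1 reads in siC, against 9 to 22 and 5 to 8 in siMSI1. CD68 was at 0.159 to 0.202 FPKM in siC and at 0.248 to 0.509 FPKM in siMSI1. For PTPRC, EPCAM, CDH1 and CD3E the groups overlapped. Of the detected neural and glioma markers, GFAP, a marker of astrocytes, rose 2.82-fold (limma, adjusted p = 0.000905). FABP7, a marker of radial glia, fell to 46.0% of the siC level (limma, adjusted p = 0.000274). NES, VIM and SOX2 were at 89.3%, 83.6% and 85.6% of the siC level and did not pass. The part of these markers in the results that follow was not tested.

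The unfolded protein response is the reaction of a cell to misfolded protein in the ER. A set of sensors in the ER membrane starts it. PERK (gene EIF2AK3) slows translation and allows ATF4 to be made, IRE1 (gene ERN1) splices XBP1 mRNA, and ATF6 is cut to release a transcription factor. The targets include chaperones and folding enzymes, the machinery that returns misfolded protein to the cytosol for degradation (ER-associated degradation), and, downstream of ATF4, enzymes that supply amino acids. ATF4 is also reached without ER stress, through other kinases that sense amino acid lack, double-stranded RNA or heme lack.

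Promoter letters through which ATF6, XBP1 and ATF4 are known to act were looked for first, since they show which members carry a direct binding word near the start of transcription. The windows reached from 250 bases upstream to 50 bases downstream of the first RefSeq start listed for a gene (GRCh38.p14), and 36 of the 43 members had a window. The ER stress response element, CCAAT and CCACG with 9 free bases between them on either strand, was present in 4 of these windows and in 0.0806% of all 27305 promoters. The members that held it were CALR, CANX, CRELD2 and XBP1. Its shorter form, ATTGG and CCACG with 1 free base between them on either strand, was present in HERPUD1, HYOU1 and SDF2L1 and in 0.0549% of all promoters. In the sequences below, on the strand of the gene, capitals mark the match.
XBP1: gctggCCAATCGCGGAGGGCCACGaccgt
CALR: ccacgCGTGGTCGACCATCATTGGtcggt
CANX: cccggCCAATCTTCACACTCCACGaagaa
CRELD2: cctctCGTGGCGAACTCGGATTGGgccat
HERPUD1: cgccgATTGGGCCACGttggg
SDF2L1: ggaagCGTGGACCAATcaaaa
Positions are given for the printed sequences, which hold 5 bases on each side of the match. The XBP1 sequence lies at chr22:28800598-28800626, on the minus strand, and its match starts 52 bases upstream of the RefSeq start. That of CALR lies at chr19:12938379-12938407, that of CANX at chr5:179698773-179698801 and that of CRELD2 at chr22:49918549-49918577. The sequence of HERPUD1 lies at chr16:56932020-56932040, with its match starting 117 bases upstream of the start, and that of SDF2L1 lies at chr22:21642109-21642129. The binding word of ATF4 with its C/EBP partners, TGATGNAA on either strand, was found in ASNS, CHAC1 and HERPUD1 and in 3.67% of all promoters.
ASNS: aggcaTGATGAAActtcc
CHAC1: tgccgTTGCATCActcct
HERPUD1: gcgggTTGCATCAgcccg
These lie at chr7:97872464-97872481 (minus strand), chr15:40953257-40953274 and chr16:56931961-56931978. HERPUD1 was thus the member with both kinds of word. The word TGACGTGG, on either strand, was found in ALDH18A1 and HYOU1 and in 0.795% of all promoters, and in HYOU1 it overlaps a match of the shorter ER stress response element. A match is a description of letters and was not tested as a binding site.

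Upon MSI1 knockdown, the genes of the sensors PERK and ATF6 fell to about 60% of the control level. The 10 genes of ER folding, which include the most abundant member, did not pass the test. Over all tested genes 11.0% passed, and for a group of 10 a count of 0 is near that share. Of the 43 members, 42 reached a mean of 0.5 FPKM and were tested, and 7 passed the threshold (limma on log2(FPKM + 0.1), adjusted p of at most 0.01). EIF2AK3, ATF6, CREB3L2, HERPUD1 and DERL1 were lower in siMSI1, and CEBPB and DDIT4 were higher. This is 16.7% of the tested members, beside 11.0% of the 15069 genes tested. For the lower direction, 5 of 42 members stand beside 5.83% of all tested genes, and for the higher direction 2 of 42 beside 5.15%. The order of the shares for both directions together depended on the fit. With voom on recovered reads it was 16.7% of members beside 18.9% of all genes, and at an adjusted p of 0.05 23.8% beside 25.1%. In the other alternatives the members' share was the higher. The median log2 fold change was 0.02 over the tested members and 1.46e-05 over all tested genes. Without siC replicate 1, 4 of the 7 calls remained (those of EIF2AK3, ATF6, CREB3L2 and DDIT4), while 528 of all tested genes passed in place of 1655. The groups did not overlap for 20 of the 42 members (47.6%), beside 42.8% of all tested genes. With 3 libraries against 3, the smallest two-sided p of an exact permutation test of a single gene is 0.1. In bulk libraries, a lower level in every cell and fewer cells with the mRNA cannot be told apart.

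**Figure D1:**
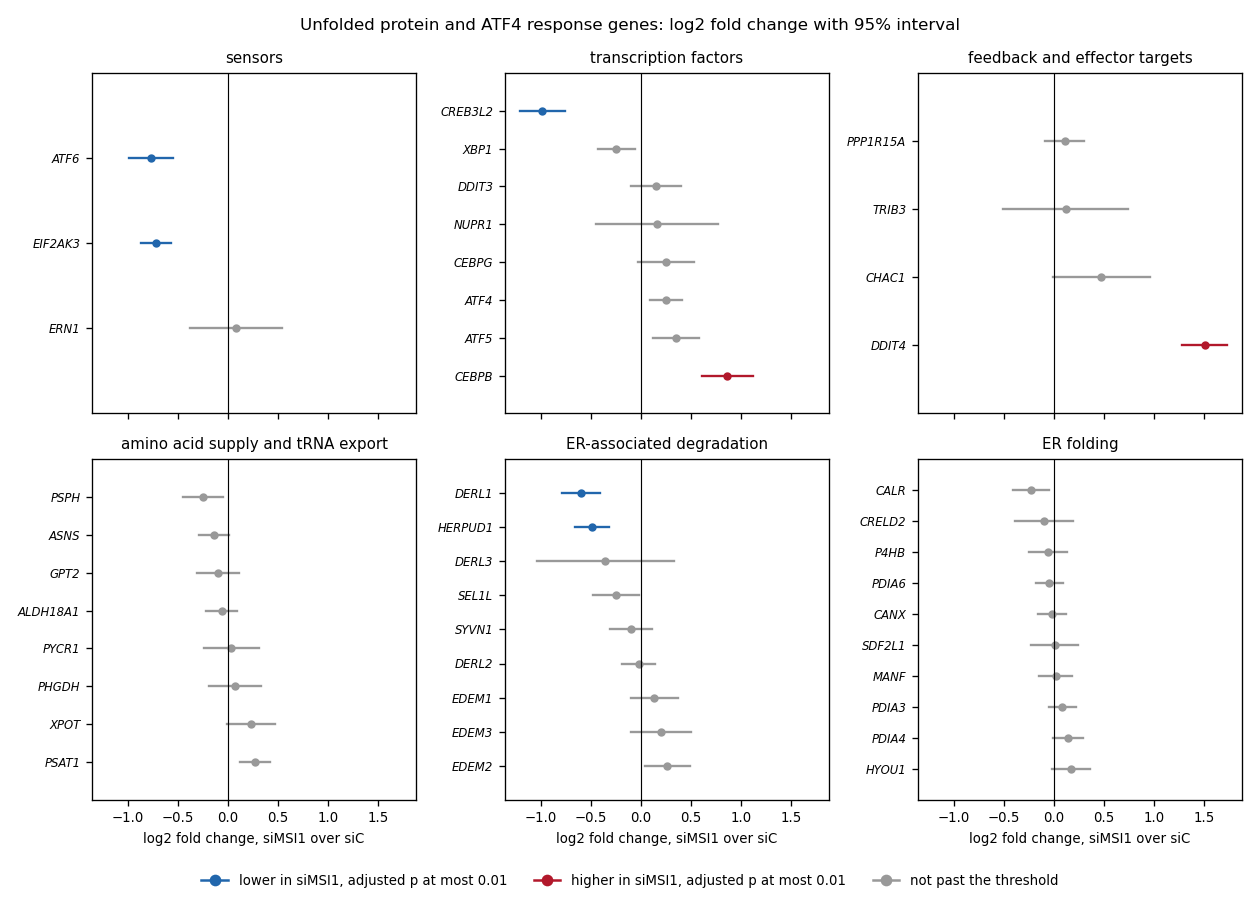
Log2 fold change of siMSI1 over siC for the 42 tested members, in 6 panels by role, with points for the estimate and lines for the 95% interval from limma. The 5 members called lower (blue) lie between −0.99 and −0.49 and the 2 called higher (red) at 0.86 and 1.51, while all 10 genes of ER folding lie between −0.23 and 0.17 and are grey.

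Of the 3 sensors, 2 fell, beside 5.83% of all tested genes called lower, and the third did not pass the test. EIF2AK3 (ENSG00000172071), which encodes the eIF2α kinase PERK, lies on chromosome 2 of GRCh38 from 88556741 to 88691518. It was at 20.8, 20.6 and 19.6 FPKM in the siC libraries, against 12.2, 12.7 and 11.9 FPKM after knockdown. Every siMSI1 library was thus below every siC library. The mean of 12.3 ± 0.408 FPKM (SD, n = 3) was 60.4% of the siC mean of 20.3 ± 0.65 FPKM, and the log2 fold change was −0.72 (SE, the standard error, 0.064; limma, adjusted p = 0.000477). ATF6 (ENSG00000118217), the membrane-tethered transcription factor, lies on chromosome 1 from 161766298 to 161977574. It was at 10.6, 11.4 and 10.0 FPKM in the siC libraries, against 6.72, 6.43 and 5.55 FPKM after knockdown, again without overlap. Its mean in siMSI1 was 58.3% of that in siC, with a log2 fold change of −0.77 (SE 0.095; limma, adjusted p = 0.00144). Both calls held in all 17 alternative settings, where the looser threshold of 0.05 could not remove a call. ERN1, which encodes the kinase and endoribonuclease IRE1, was the sensor with the lowest level. It was at 0.989, 0.951 and 0.717 FPKM in the siC libraries, against 0.937, 0.920 and 0.942 FPKM after knockdown, so the groups overlapped. Its log2 fold change was 0.08 with a 95% interval from −0.38 to 0.54 (SE 0.2; adjusted p = 0.809), which with 112 to 187 reads per library still includes a moderate change either way, and without siC replicate 3 it was −0.051. An antisense gene, AC104134.1, overlaps EIF2AK3 at 1.89 FPKM in siC and 1.21 FPKM in siMSI1 (log2 fold change −0.65, adjusted p = 0.125). Library preparation was strand-specific, but whether the counting used the strand is not given in the sources used here.

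**Figure D2:**
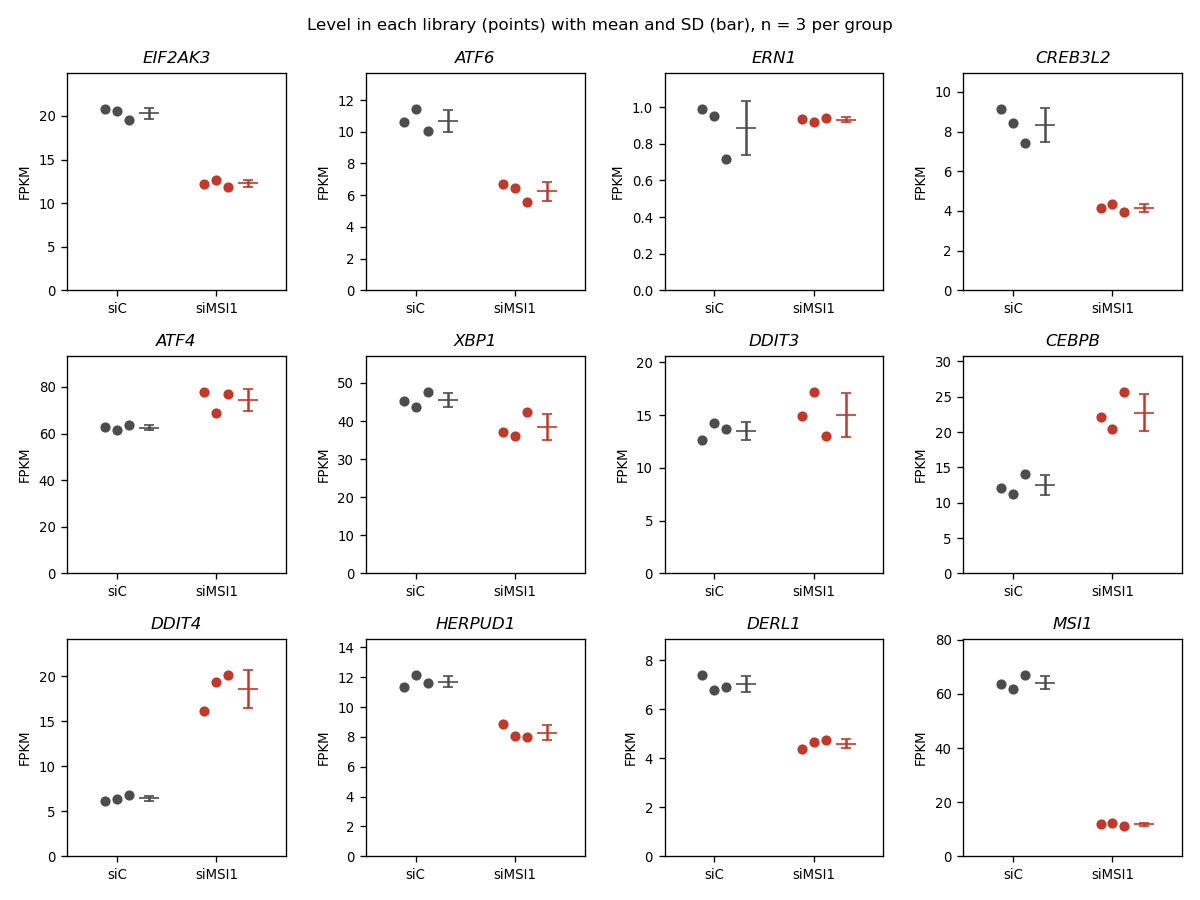
FPKM (linear axes from 0) of 11 members and of MSI1 in each library, as points, with the mean and SD of the 3 libraries of each group as a bar beside them. EIF2AK3, ATF6, CREB3L2, HERPUD1 and DERL1 show every siMSI1 library below every siC library, CEBPB and DDIT4 the opposite order, and ERN1 and DDIT3 show overlapping groups.

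Of the 8 transcription factors tested, CREB3L2 fell, CEBPB rose and 6 did not pass (25.0% called, beside 11.0% of all tested genes). The voom fit on recovered reads called the same pair without a replicate block, and with it also ATF4, ATF5, CEBPG and XBP1. CREB3L2 (ENSG00000182158), a membrane-bound factor of the same type as ATF6 that is released by the same proteases and is known for secretory capacity, lies on chromosome 7 from 137874979 to 138002086. It was at 9.12, 8.44 and 7.41 FPKM in the siC libraries, against 4.17, 4.33 and 3.93 FPKM after knockdown. The siMSI1 mean was 49.8% of the siC mean, with a log2 fold change of −0.99 (SE 0.098; limma, adjusted p = 0.000632), which was the largest fall among the members. CEBPB (ENSG00000172216), a basic leucine zipper factor that pairs with ATF4 and is also known from inflammation and differentiation, lies on chromosome 20 from 50190830 to 50192668. It was at 12.1, 11.3 and 14.1 FPKM in the siC libraries, against 22.2, 20.5 and 25.6 FPKM after knockdown, a rise of 1.82-fold. Its log2 fold change was 0.86 (SE 0.11; limma, adjusted p = 0.0017), and the call was lost only without siC replicate 1, where the adjusted p was 0.0107. ATF4 was at 62.6, 61.5 and 63.6 FPKM in the siC libraries, against 77.7, 69.0 and 76.8 FPKM after knockdown. These groups did not overlap, but the log2 fold change of 0.25 did not pass the threshold (SE 0.068, adjusted p = 0.0324). ATF4 protein is controlled mostly by translation, which was not measured here. XBP1 was at 45.3, 43.8 and 47.6 FPKM in the siC libraries, against 37.0, 36.0 and 42.3 FPKM after knockdown, with a log2 fold change of −0.25 (SE 0.079; adjusted p = 0.0548). The spliced and unspliced forms of XBP1 mRNA are not separated by gene-level values. DDIT3, which encodes the pro-apoptotic factor CHOP, was at 12.6, 14.3 and 13.7 FPKM in the siC libraries, against 15.0, 17.2 and 13.0 FPKM after knockdown. The groups overlapped, and its log2 fold change was 0.15 with a 95% interval from −0.11 to 0.40 (SE 0.11; adjusted p = 0.369). DDIT3 is overlapped on the other strand by MBD6, which fell (log2 fold change −0.64, adjusted p = 0.00324), and by MARS. Of the others, ATF5, a factor translated under stress like ATF4, was at 11.1 FPKM in siC and 14.2 FPKM in siMSI1 (adjusted p = 0.0389), CEBPG, a partner of ATF4, at 14.6 and 17.4 FPKM (adjusted p = 0.179), and NUPR1 at 0.584 and 0.663 FPKM (adjusted p = 0.699).

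Among the feedback and effector genes downstream of ATF4, 4 were tested and 1 of them, DDIT4, passed, beside 11.0% of all tested genes. DDIT4 (ENSG00000168209) encodes REDD1, an inhibitor of mTORC1 signaling that is also induced by hypoxia and glucocorticoids, and lies on chromosome 10 from 72273919 to 72276036. It was at 6.19, 6.34 and 6.79 FPKM in the siC libraries, against 16.2, 19.4 and 20.1 FPKM after knockdown. Every siMSI1 library was far above every siC library. The rise was 2.88-fold, with a log2 fold change of 1.51 (SE 0.097; limma, adjusted p = 0.00023), and the call held in all 17 alternatives. TRIB3, a pseudokinase induced by ATF4 and CHOP, was at 0.637 ± 0.135 FPKM in siC and at 0.693 ± 0.102 FPKM in siMSI1 (SD, n = 3 each). CHAC1, which degrades glutathione, was at 0.811 ± 0.0327 FPKM and at 1.18 ± 0.252 FPKM (SD, n = 3 each; log2 fold change 0.47, adjusted p = 0.14). Both rest on only 25 to 39 reads per library, which limits their precision. PPP1R15A, the phosphatase subunit GADD34 that restores translation, was at 18.0 ± 1.33 FPKM in siC and at 19.4 ± 1.48 FPKM in siMSI1 (SD, n = 3 each; adjusted p = 0.401). STC2, a secreted glycoprotein, was the member that was not tested, with 0 reads in 5 libraries and 1 read in siMSI1 replicate 1.

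None of the 8 genes of amino acid supply and tRNA export passed the threshold (limma). This stands beside 11.0% of all tested genes, which for 8 genes is near 0. At an unadjusted p under 0.05 were 2 of the 8, beside 38.3% of all tested genes. The voom fit on recovered reads called 0 of them, and with a replicate block it called PSAT1, PSPH and XPOT. PSAT1, of the serine synthesis pathway, had the lowest adjusted p among the members that did not pass. It was at 56.4, 59.6 and 53.4 FPKM in the siC libraries, against 69.5, 67.5 and 66.4 FPKM after knockdown, with a log2 fold change of 0.26 and an adjusted p of 0.0221 from limma. Of the other enzymes of the same route, PHGDH, which opens the pathway, showed a log2 difference of 0.07 (adjusted p = 0.697), and PSPH, which closes it and whose pseudogenes could share its reads, one of −0.25 (adjusted p = 0.0724). ASNS, the asparagine synthetase with the ATF4 word in its promoter shown above, was at 17.9 ± 0.374 FPKM in siC and at 16.2 ± 0.752 FPKM in siMSI1 (SD, n = 3 each; adjusted p = 0.144). For the alanine aminotransferase GPT2 and the proline synthesis enzymes ALDH18A1 and PYCR1, the log2 fold changes were −0.10, −0.06 and 0.03. XPOT, which exports tRNA from the nucleus, had one of 0.23 (adjusted p = 0.153).

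In ER-associated degradation, 2 of 9 genes fell and 7 did not pass. The 2 are 22.2% of the group, beside 5.83% of all tested genes called lower, and 0 of the 9 were called without siC replicate 1. The voom fit called the same pair without a replicate block, and with it also EDEM2 and SEL1L. HERPUD1 (ENSG00000051108), a membrane protein that organizes the retrotranslocation complex, lies on chromosome 16 from 56932142 to 56944864. It was at 11.4, 12.1 and 11.6 FPKM in the siC libraries, against 8.86, 8.04 and 7.98 FPKM after knockdown, without overlap. Its mean in siMSI1 was 70.8% of that in siC, with a log2 fold change of −0.49 (SE 0.073; limma, adjusted p = 0.00307). The size of this difference was stable, from −0.54 to −0.45 over the alternatives, but the call was lost in 6 of 17. The adjusted p was 0.0166, 0.0143 and 0.0128 without siC replicates 1 to 3, 0.013 without siMSI1 replicate 2, 0.0103 with no filter on low genes and 0.0112 with plain variance moderation. DERL1 (ENSG00000136986, chromosome 8), one of the derlins that form the channel in the ER membrane, was at 7.39, 6.78 and 6.91 FPKM in the siC libraries, against 4.38, 4.66 and 4.76 FPKM after knockdown. The siMSI1 mean was 65.5% of the siC mean, with a log2 fold change of −0.60 (SE 0.080; limma, adjusted p = 0.002). Its adjusted p was 0.0155 without siC replicate 1 and 0.0102 without siMSI1 replicate 1. Its paralog DERL2 was at 11.5 ± 0.574 FPKM in siC and at 11.4 ± 0.51 FPKM in siMSI1 (SD, n = 3 each), and the log2 fold change was −0.02 with a 95% interval from −0.19 to 0.14. DERL3 had only 19 to 41 reads per library and its interval reached from −1.04 to 0.33. The ubiquitin ligase SYVN1 and its partner SEL1L had log2 fold changes of −0.10 (adjusted p = 0.451) and −0.25 (adjusted p = 0.103). The mannosidase-like proteins EDEM1, EDEM2 and EDEM3, which mark misfolded glycoproteins for removal, had values of 0.13, 0.26 and 0.20 (adjusted p = 0.37, 0.0857 and 0.303). SYVN1 overlaps the highly expressed ribosomal gene FAU on the same strand (246 FPKM in siC), and some of its reads could be shared.

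All 10 genes of ER folding were tested and 0 passed the threshold (limma). This stands beside 11.0% of all tested genes, which for 10 genes is near 0. At an unadjusted p under 0.05 was 1 of the 10, CALR, beside 38.3% of all tested genes. The voom fit called 0 of them without a replicate block and CALR and HYOU1 with it, and quantile normalization called CALR. CALR, a lectin chaperone of the ER that also binds calcium, was the most abundant member. It was at 386, 363 and 404 FPKM in the siC libraries, against 309, 321 and 355 FPKM after knockdown, where the groups did not overlap. Its log2 fold change was −0.23 with a 95% interval from −0.41 to −0.05 (adjusted p = 0.0674). Its membrane-bound partner CANX was at 80.1 ± 2.61 FPKM in siC and at 79.1 ± 2.07 FPKM in siMSI1 (SD, n = 3 each), with an interval from −0.16 to 0.12. The protein disulfide isomerases PDIA3, PDIA4, PDIA6 and P4HB, which form and rearrange disulfide bonds, were at 112 to 126 FPKM in siC and had log2 fold changes of 0.08, 0.14, −0.05 and −0.06. HYOU1, a chaperone of the HSP70 type, had one of 0.17 (adjusted p = 0.173). MANF, SDF2L1 and CRELD2, small proteins of the ER lumen that are known as sensitive reporters of ER stress, had values of 0.02, 0.01 and −0.10, and none passed (adjusted p = 0.892, 0.974 and 0.592). Of the 6 members with an ER stress response element shown above, HERPUD1 fell and the others did not pass the threshold.

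The levels of the tested members in siC spanned from 0.584 FPKM for NUPR1 to 384 FPKM for CALR. The ER folding enzymes PDIA4, PDIA6, P4HB and PDIA3 followed CALR at 126 ± 2.72, 122 ± 2.81, 112 ± 6.08 and 112 ± 0.677 FPKM (SD, n = 3 each), and the libraries of PDIA4 and PDIA6, like those of P4HB and PDIA3, overlapped in siC. All sensors lay lower, at 20.3 FPKM for EIF2AK3, 10.7 FPKM for ATF6 and 0.886 FPKM for ERN1. Within groups, the coefficient of variation of a member had a median of 6.04% in siC and 8.91% in siMSI1. Among the siMSI1 libraries, replicate 3 was the lowest or highest for 38 of the 42 members (90.5%), and for 78.1% of all tested genes. Without it, 7 members passed the threshold, and these were the same 7 genes. Of the 35 tested members that did not pass, 27 had a 95% interval that lay within 0.5 of 0 on the log2 scale.

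**Figure D3:**
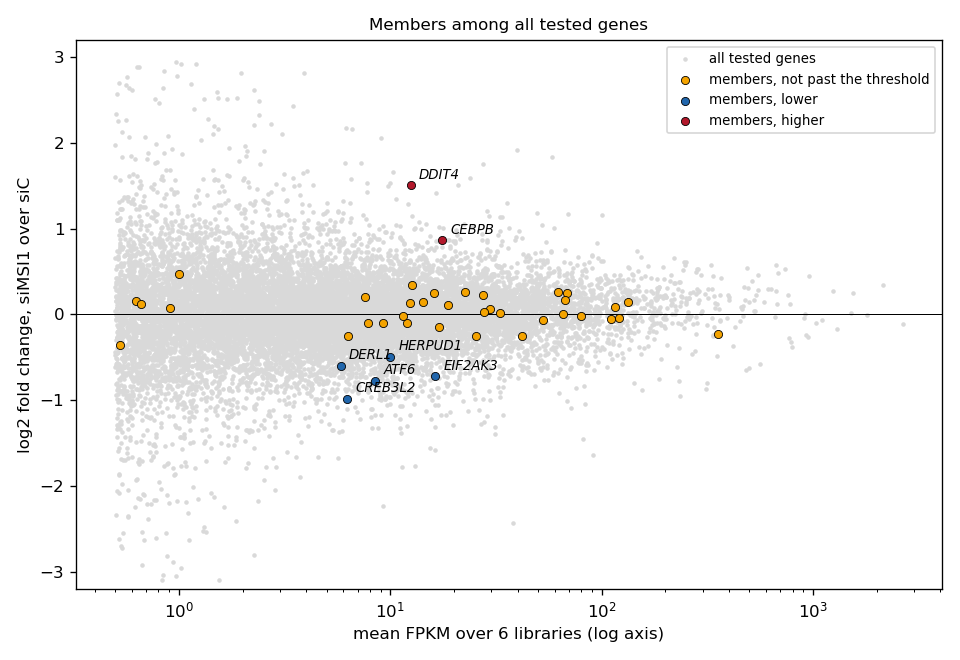
Mean FPKM over the 6 libraries (log axis) against the log2 fold change of siMSI1 over siC for the 15069 tested genes (grey), with the members on top. The 7 members past the threshold are named and have mean levels of about 6 to 18 FPKM, and the members above 20 FPKM lie between −0.25 and 0.26. The vertical axis ends at 3.2 and leaves out 14 genes that are not members.

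MSI1 is known to bind mRNAs in their 3′UTR. For the members, the longest annotated 3′UTR was therefore searched for words of the Musashi consensus, a purine, then 1 to 3 U and AGU (in DNA letters, GTAGT or ATAGT, or either with 1 or 2 more T at its second base, sense strand). All 5 members that fell had at least 1 such word, as did 74.3% of the 11291 tested genes with a 3′UTR. A longer 3′UTR has more room for a word. The median length was 2277 bases over the members that fell, beside 1539 bases over all these genes. It was 722.5 bases over the members that rose and 972 bases over those that did not pass. The density was 3.58 words per kb for EIF2AK3, 2.95 for ATF6, 2.54 for HERPUD1, 2.18 for CREB3L2 and 1.32 for DERL1, beside a median of 1.63 words per kb over all these genes. Of the members that rose, DDIT4 had 1 word and CEBPB had 0. The members that did not pass had a median of 1.36 words per kb, and ASNS, which did not pass, had the highest density of all members, at 6.87 words per kb. The first GTAGT of the 3′UTR is shown for 4 of the fallen members, with 10 bases on each side and the word in capitals.
EIF2AK3: gcagagctgaGTAGTtgtatcagag
ATF6: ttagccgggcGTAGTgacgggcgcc
CREB3L2: cttacctttgGTAGTcaggtttggc
HERPUD1: tatactctatGTAGTttaataagca
They lie at chr2:88558065-88558089 (minus strand), chr1:161959521-161959545, chr7:137879239-137879263 (minus strand) and chr16:56943519-56943543 of GRCh38. Binding of MSI1 to these sites was not measured in these libraries.

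Beyond the members, 67 other genes of the pathway were read from the same fit. This list was chosen with earlier results of these data known. Of the 67 genes, 61 were tested. Of these, 8 passed the threshold (13.1%, beside 11.0% of all tested genes), 6 higher and 2 lower, with a median log2 fold change of 0.03. HSPA5, the main ER chaperone BiP and the usual reporter of the response, was at 133, 135 and 129 FPKM in the siC libraries, against 146, 147 and 138 FPKM after knockdown. It did not pass, with a log2 fold change of 0.12 and a 95% interval from −0.02 to 0.26 (adjusted p = 0.191). The largest rise was that of BBC3, which encodes the BH3-only protein PUMA and is also a target of p53, from 0.614 ± 0.106 to 1.85 ± 0.229 FPKM (SD, n = 3 each), which on the log2 scale is a change of 1.45 (SE 0.19; limma, adjusted p = 0.00186). With 23 to 96 reads per library this size depended on the added value: with 1 FPKM in place of 0.1 FPKM it was 0.82, as were those of SESN2 and TXNDC5. SESN2, an inhibitor of mTORC1 like DDIT4, rose from 2.62 ± 0.106 to 5.41 ± 0.842 FPKM (SD, n = 3 each; adjusted p = 0.00138). BCL2L11, which encodes the BH3-only protein BIM, rose 1.38-fold (adjusted p = 0.00295). VLDLR, a lipoprotein and reelin receptor, rose 1.75-fold (adjusted p = 0.000445). The disulfide isomerase genes PDIA5 and TXNDC5 rose 1.72-fold and 1.95-fold (adjusted p = 0.000366 and 0.00526), where the 4 isomerase genes among the members did not pass. SHMT2, the mitochondrial serine hydroxymethyltransferase, fell to 66.2% of the siC level (adjusted p = 0.00289). The 13 aminoacyl-tRNA synthetase genes, many of them ATF4 targets, were all tested and 0 passed (limma), beside 11.0% of all tested genes. For a group of 13 this difference is small. At an unadjusted p under 0.05 were 4 of the 13, again beside 38.3% of all tested genes. WARS was the nearest, at a log2 fold change of −0.38 and an adjusted p of 0.0101, and the voom fit called it alone without a replicate block and with IARS, MARS and YARS with it. Among the other eIF2α kinases, EIF2AK1, EIF2AK2 and EIF2AK4 had log2 fold changes of −0.23, 0.03 and −0.18 (adjusted p = 0.0206, 0.847 and 0.0777), and none passed.

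**Figure D4:**
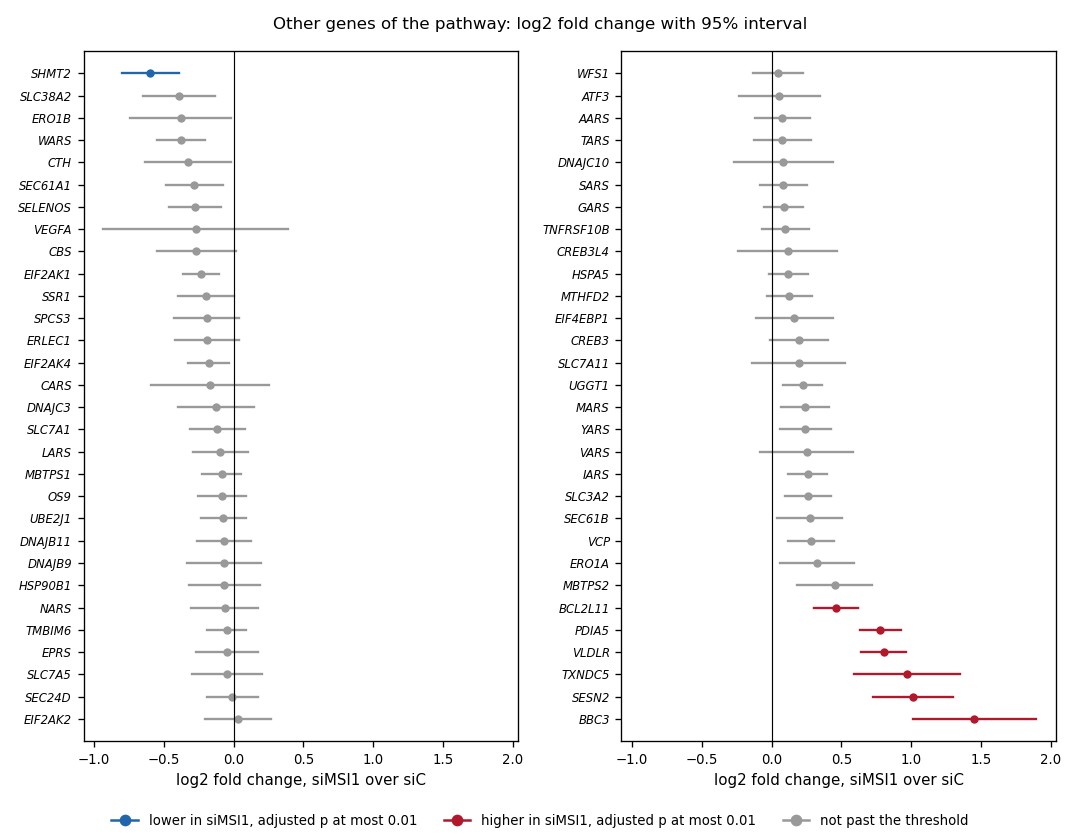
Log2 fold change of siMSI1 over siC with its 95% interval for 60 of the 61 tested other genes of the pathway, ordered by value over both panels. SHMT2, drawn as called lower, lies at −0.60, the 6 called higher run from BCL2L11 at 0.46 to BBC3 at 1.45, and HSPA5 lies at 0.12.

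Some of these calls were lost in fits without 1 library. Fewer of all tested genes passed in these fits as well, 528 to 1603 in place of 1655. Of the 8 calls among the other pathway genes, 4 remained without siC replicate 1, 5 without siMSI1 replicate 1 or 2, and 7 without siMSI1 replicate 3, where 1 other gene was called in addition. SHMT2, TXNDC5 and BCL2L11 lost their calls in 4, 5 and 5 of the 6 fits without 1 library, with adjusted p-values up to 0.018, 0.0212 and 0.0165. SESN2, VLDLR, PDIA5 and BBC3 kept theirs in all 17 alternatives.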

How the data were processed

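The authors clipped reads with Cutadapt 1.14, aligned them to GRCh38 with HISAT2 2.1.0, counted them per gene with featureCounts 1.5.3 on Ensembl release 89 and deposited FPKM values per gene and library. The deposited table also holds the authors' log2 fold changes with p-values and FDR (edgeR 3.18.1, TMM), which were not used. Multiplied by gene length, 100.0% of the values above 0 were whole multiples of 1 read (within 0.01 reads), and these gave the read numbers. At a length of 2 kb, a floor of 3 reads equals 0.0829 to 0.114 FPKM, for counting error only.

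Genes with a mean of at least 0.5 FPKM (15069) entered a linear model of log2(FPKM + 0.1) in limma 3.58.1 (R 4.3.3), with group as the only term and eBayes with trend and robust. This scale understates changes of low genes. Benjamini-Hochberg adjustment ran over all tested genes, and an adjusted p of 0.01, as in the study, was the threshold. The fit was tested on simulated data. Gene positions and 3′UTRs came from GENCODE release 44, promoters from RefSeq (GRCh38.p14). Every member is named. By rule, full values are given for ATF4, XBP1, ATF6, ERN1, EIF2AK3, DDIT3 and each member past the threshold, and of the other pathway genes for HSPA5 and those past it (up to 8, here in shorter form). PSAT1, CALR and further pathway genes were added after their values were seen. Of the other pathway genes past the threshold, 1 is counted but not reported here. The members and lists were chosen with earlier results of these data known. Between libraries of the same replicate number, the deviations from the group means had correlations of −0.0661, 0.0783 and 0.083. With 3 libraries per group, these cannot decide whether the numbers pair the libraries, and the reported fit held no replicate block. No library was a copy of another: the most alike pair, siC replicates 1 and 3, had a chi-square per degree of freedom of 3.34. The 17 alternatives were other added values, filters, scalings, moderation and threshold, a replicate block, voom on recovered reads and each library left out. The other threshold, an adjusted p of 0.05, is looser and cannot remove a call. Python 3.11.15 was used for the rest.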

Additional observations from a re-analysis of the deposited data

How the results depend on the processing

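The number of members past the threshold stayed within 1.5 times the 7 reported in all alternatives but 2. It was 18 (9 lower, 9 higher) with voom on recovered reads and a replicate block, which included the same 7 genes, and with 1 library left out it ranged from 4 to 7. The other pathway genes numbered 29 under that voom fit, 17 at an adjusted p of 0.05, and 4 to 8 with 1 library left out. All tested genes past the threshold numbered 792 with no filter on low genes, 847 with plain variance moderation, 3787 at an adjusted p of 0.05, 2855 with voom, 5070 with voom and the replicate block, and 528 to 1603 with 1 library left out, where 528 was without siC replicate 1. With the replicate block in the fit on FPKM, 8 members (ATF5 in addition), 11 other pathway genes and 2250 of all genes passed. More of all genes thus passed with the block, but whether the replicate numbers pair the libraries was not settled. Not every library correlated best with its own number. The log2 fold change crossed 0 in at least 1 alternative for 9 of the 42 tested members, of which 0 were called (ERN1, TRIB3, PHGDH, PYCR1, DERL2, CANX, CRELD2, MANF and SDF2L1, with values from −0.21 to 0.23). That of ERN1 was −0.051 when siC replicate 3 was left out, in a range of −0.051 to 0.16 over the fits without 1 library. The cause was not tested. Genes at 19 to 41 reads per library (TRIB3, CHAC1, DERL3) are limited by depth.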

Other observations

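6 of the 67 other pathway genes stayed below a mean of 0.5 FPKM and were not tested. FGF21, a secreted hormone induced by ATF4, had 0 reads in all 6 libraries, and GDF15, another secreted reporter of stress, had 2 to 6 reads per library. CREB3L1 and CREB3L3, of the same factor family as CREB3L2, had at most 5 and 2 reads, so a change of these was not detectable at this depth. JDP2 had 8 to 16 reads and ALDH1L2 14 to 39 reads.

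Summed over the 3 sensors, the FPKM per library lay between 30.3 and 32.9 in siC and between 18.4 and 20.0 in siMSI1. Summed over the 10 ER folding genes, it lay between 1074 and 1137 in siC and between 1025 and 1129 in siMSI1, so these groups overlapped. Several members are close in level in all libraries: PDIA6, for example, was at 120 to 125 FPKM in siC and at 116 to 122 FPKM in siMSI1, and DERL2 at 11.2 to 12.2 FPKM and at 10.9 to 11.9 FPKM.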
